A study of Mus musculus with 4 samples.

Results

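A set of 9 genes was chosen by name from the adhesion class of G protein-coupled receptors (GPCRs), and their m6A peaks were taken from both deposited peak lists wherever a peak touched an exon in GENCODE M21 on mouse genome build mm10. The set holds the brain angiogenesis inhibitors Adgrb1, Adgrb2 and Adgrb3, the latrophilins Adgrl1, Adgrl2 and Adgrl3, and the Celsr cadherins Celsr1, Celsr2 and Celsr3, out of 21866 protein-coding genes of the annotation. No measured value entered their choice by the rule, although earlier results of these data were known when the rule was written. Peaks came from m6A-seq, in which fragmented mRNA is pulled down with an antibody against N6-methyladenosine and sequenced beside untreated input RNA. The RNA was from whole brain of 4-week-old mice, labelled as strain C57BL/6J and described by the series as carrying floxed Prrc2a alleles (Prrc2a flox/flox), with no Cre driver named. Of the samples, 2 replicates of m6A immunoprecipitation (IP) carry a peak list each, and 2 input samples enter only through the fold enrichment of those peaks. The study calls the replicates biological, and the labels do not name the animals behind them. With 1 group there is no second condition to test against.

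Adhesion GPCRs combine a large extracellular part, used in cell contact, with a membrane part of the GPCR fold. Latrophilins bind teneurins and FLRT proteins across synapses, brain angiogenesis inhibitors take part in synapse formation and in the uptake of dying cells, and Celsr proteins carry cadherin repeats and steer planar cell polarity, axon guidance and dendrite growth. N6-methyladenosine is written by the METTL3-METTL14 complex, mostly at GGAC-type sequences, and in mammalian mRNA it is known to lie in long internal exons and around stop codons.

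Sequences with the motif in or beside the intervals of these genes are shown first. Each is a window of 30 bases on the strand of the gene in mm10, 5′ to 3′, read from the RefSeq copy of that build, with GGACT, or GGAC where the next base is not T, in capitals. The first set is shown because it lies at the same aligned codon of all 3 latrophilins, inside a shared interval of each. Adgrl1 is at chr8:83929758-83929787 on the plus strand, Adgrl2 at chr3:148859210-148859239 on the minus strand and Adgrl3 at chr5:81512278-81512307 on the plus strand.
Adgrl1: aatatgacctgcGGACccgcatcaagagcg
Adgrl2: agtttgacttgaGGACTagaatcaagagcg
Adgrl3: agtttgatttgaGGACTaggataaagagtg

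Celsr genes had GGACT at 1 aligned codon of exon 1 in all 3 members, and it is shown because only Celsr2 and Celsr3 had a shared interval over it. Each window also holds another GGAC further on, left in lower case, which is likewise at 1 aligned codon of all 3. Celsr1 is at chr15:86031159-86031188 on the minus strand, Celsr2 at chr3:108413159-108413188 on the minus strand and Celsr3 at chr9:108829037-108829066 on the plus strand.
Celsr1: catgacggaactGGACTatgaggaccaggc
Celsr2: ccaggctgagctGGACTacgaggaccaggt
Celsr3: gcaagctccattGGACTatgaggaccaagt

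Brain angiogenesis inhibitors are shown in the long exon near the C terminus that held a shared interval in each of them. The windows of Adgrb1 (chr15:74587019-74587048, plus strand) and Adgrb2 (chr4:130018893-130018922, plus strand) lie at the same aligned codon, and that of Adgrb3 (chr1:25093798-25093827, minus strand) is the single GGACT of its interval.
Adgrb1: ctttaagaaactGGACTccgagctgagccg
Adgrb2: cctgcggcagttGGACcttacatggatacg
Adgrb3: gatgataatgtgGGACTgtcaagaagtgaa

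A further pair of windows comes from the strongest shared intervals of Celsr2, in its 3′ UTR (chr3:108392178-108392207, minus strand), and of Celsr3, in exon 1 (chr9:108829423-108829452, plus strand).
Celsr2: ctgggaggagagGGACTcttagggggcctg
Celsr3: tgcccccactgaGGACTccagtcagcatcc

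The lists held 38533 peaks in replicate 1 and 30134 in replicate 2, and 60.0% and 77.0% of them were matched, that is, had at least 1 bp in common with the other list. They give no read counts, strand or expression level, so the depth is unknown here, and a gene with little RNA and a gene with little methylation cannot be told apart where no peak was listed. Markers of neurons had a shared peak in 5 of 6 genes, those of oligodendrocytes in 5 of 5 and of oligodendrocyte precursors in 2 of 2. Those of astrocytes had one in 4 of 4, of microglia in 3 of 3 and of endothelium in 2 of 2. Of the markers of tissue other than brain 1 of 6 had one, Myh6, and over all protein-coding genes 45.5% had. The markers of other tissue had a median of 2552.5 nt of exon, against 7215 nt in those of neurons, and the part of length was not tested.

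All receptor genes except Celsr1 carried m6A peaks in both replicates. Exons of all 9 genes were touched by a replicate 1 peak, where 54.4% of protein-coding genes were, and exons of 8 by a replicate 2 peak, where 49.5% were. A shared interval, meaning the stretch where peaks of both replicates coincide, lay over exons of 8 of 9 genes. Among all protein-coding genes 45.5% had a shared interval, and among the 4427 with at least as much exon as the shortest of the 9 genes (6487 nt) 72.1% had. Together the 9 genes had 35 shared intervals over 107.386 kb of exon, or 0.326 per kb, and these covered 19.6% of the exon bases. Over all protein-coding genes the pooled figure was 0.237 per kb. The median gene with any shared interval had 2, and 0.399 per kb, or 0.259 per kb among the genes of at least 6487 nt.

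Adgrl1 and Celsr3 had the most shared intervals of the 9 genes, 6 each, a number that 550 protein-coding genes reached or passed. Adgrb2 and Celsr2 had 5, Adgrb1 and Adgrl3 had 4, Adgrl2 had 3 and Adgrb3 had 2. Per kb of exon the order was Adgrb2 at 0.771, Adgrl1 at 0.699, Adgrb1 at 0.554, Celsr3 at 0.497, Celsr2 at 0.434, Adgrl3 at 0.225, Adgrl2 at 0.211 and Adgrb3 at 0.108. Exon length ran from 6487 nt in Adgrb2 to 18559 nt in Adgrb3, and shared intervals covered 30.7% of the exon bases of the first and 5.38% of the second. These lengths, and the densities per kb, count the exons of all annotated transcripts of a gene. The transcripts with the longest coding sequence were closer in length, 4734 nt in Adgrb2 and 5448 nt in Adgrb3. Of these, 1426 nt and 968 nt lay in shared intervals. Of the protein-coding genes with a shared interval, 18.3% were denser than Adgrb2 and 96.3% were denser than Adgrb3. Across the 9 genes exon length and interval number had a Pearson correlation of -0.36 (Spearman -0.36). With CDS (coding sequence) length in place of exon length it was -0.04 (Spearman 0.11), so the negative value did not hold for coding length. Both are given as a description of 9 genes read from the same 2 libraries.

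The pooled densities of the families lay close together. Brain angiogenesis inhibitors had 11 shared intervals (0.341 per kb), latrophilins 13 (0.321 per kb) and Celsr genes 11 (0.318 per kb, all of them in Celsr2 and Celsr3). Each family therefore had members well above and well below its pooled value, with Adgrb2 and Adgrb3 the widest pair within a family.

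**Figure D1:**
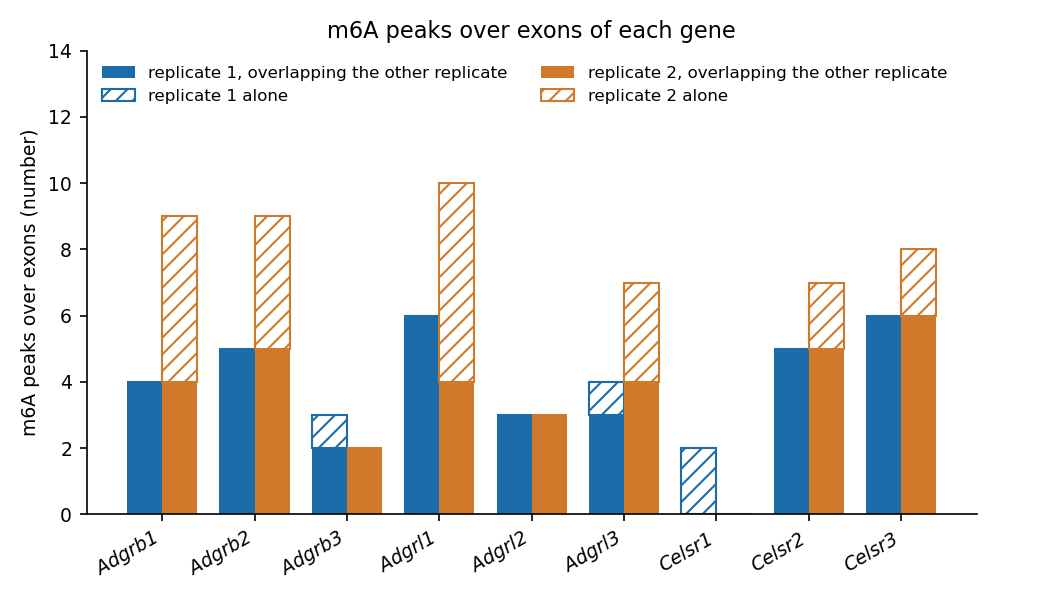
Number of m6A peaks over exons of each gene, replicate 1 in blue and replicate 2 in orange, with filled bars for peaks that overlap a peak of the other replicate and hatched bars for peaks of 1 replicate alone. Replicate 2 has as many or more peaks in 7 of the 9 genes, and Celsr1 has 2 peaks in replicate 1 and none in replicate 2.

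In the receptor genes most unmatched peaks were those of replicate 2, whereas over the whole lists replicate 1 had the lower matched share. Replicate 1 had 38 peaks over their exons and replicate 2 had 55. Of the replicate 1 peaks 34 (89.5%, 95% Wilson interval 75.9 to 95.8) overlapped a replicate 2 peak, against 67.8% of replicate 1 peaks over exons of any protein-coding gene. Of the replicate 2 peaks 33 (60.0%, 46.8 to 71.9) overlapped a replicate 1 peak, against 76.8%. The Wilson intervals count peaks as independent, which peaks of 1 gene and library are not. With only peaks of at least 2-fold enrichment in both lists, the share was 86.2% in replicate 2 and 78.1% in replicate 1.

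In the receptor genes unmatched peaks of replicate 2 were weaker than matched ones, and most lay over short internal exons. Their fold enrichment, the linear ratio of IP over input given by the peak caller, ran from 1.25 to 2.47 with a median of 1.70, and that of the matched replicate 2 peaks from 1.51 to 3.97 with a median of 2.40. The midpoint lay in an internal exon under 400 nt in 15 of the 22 unmatched peaks and in 2 of the 33 matched ones. Unmatched and matched peaks were not compared in this way over all protein-coding genes. Whether the difference is particular to the receptor genes was therefore not tested. Of the 22 unmatched peaks Adgrl1 had 6 and Adgrb1 5, among them peaks at exons 21, 25 and 26 of Adgrb1, of 151, 172 and 96 nt. Replicate 1 had 4 unmatched peaks, 2 in Celsr1, 1 in Adgrb3 (1.60-fold) and 1 in Adgrl3 (1.81-fold).

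Enrichment of the shared intervals was higher in replicate 1, as was the median over protein-coding exons in general. The median fold enrichment of all peaks over the 9 genes was 3.88 in replicate 1 and 2.01 in replicate 2, where peaks over any protein-coding exon had 2.71 and 2.17. In 32 of the 35 shared intervals replicate 1 had the higher value, with a median ratio of 1.53. The exceptions were an interval at exon 7 of Adgrb2 (1.44 and 1.55), an interval in the 3′ UTR of Adgrl1 (1.26 and 2.22) and the second interval of exon 1 of Celsr2, where the values were almost equal (1.92 in each). How often replicate 1 had the higher value over all shared intervals of the series was not counted. The log2 values of the replicates had a Pearson correlation of 0.72 (Spearman 0.72) over the 35 intervals, some of which share a peak.

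**Figure D2:**
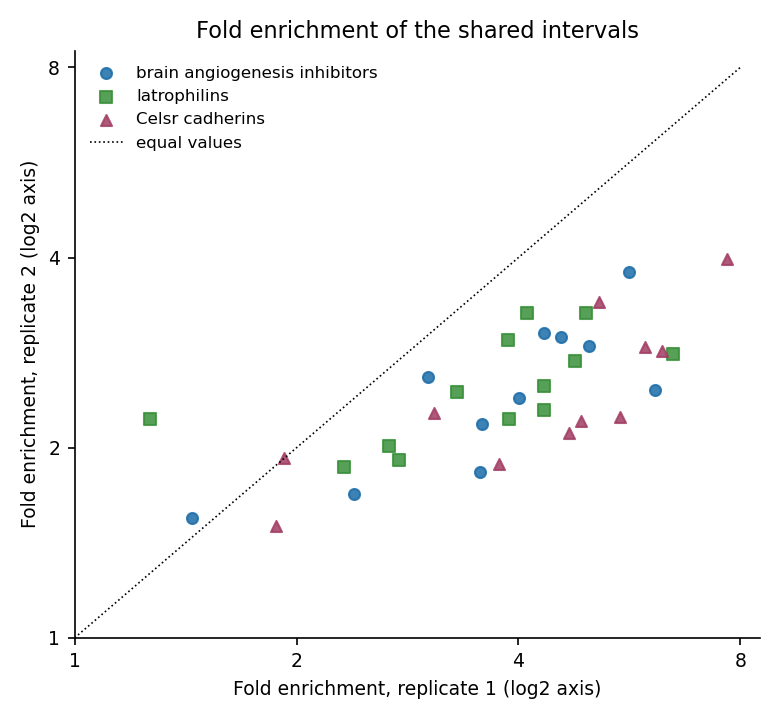
Fold enrichment (IP over input, log2 axes) of the 35 shared intervals in replicate 1 and replicate 2, with a symbol for each family and a dotted line at equal values. Most points lie below the line, 32 with the higher value in replicate 1, and the Celsr2 3′ UTR interval is highest in both replicates at 7.67 and 3.97.

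Long exons carried the internal intervals. In the representative transcripts (the longest coding sequence of each gene) the 9 genes had 249 internal exons with a median of 129 nt, and the 12 that held the midpoint of a shared interval had a median of 676 nt. Of internal exons of 800 nt or more, 5 of 5 held an interval, and of those of 400 to under 800 nt 5 of 7 did. Exons of 200 to under 400 nt held an interval in 1 of 33 cases and shorter ones in 1 of 204. The same shares over all protein-coding genes with a shared interval were 87.6%, 64.2%, 11.7% and 4.1%. The exceptions among the long exons were exon 2 of Adgrb3 (772 nt) and exon 2 of Celsr1 (639 nt), which no peak of either list touched. Last exons held an interval midpoint in 6 of 9 transcripts (67.5% over all such genes), and first exons in 4 of 9 (24.6%). First exons were not matched for length, with 12.883 kb in the 9 and 2950.44 kb in the 9013 of all such genes. Per kb of first exon the receptor genes had 0.543 intervals, fewer than the 0.808 of all such genes.

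**Figure D3:**
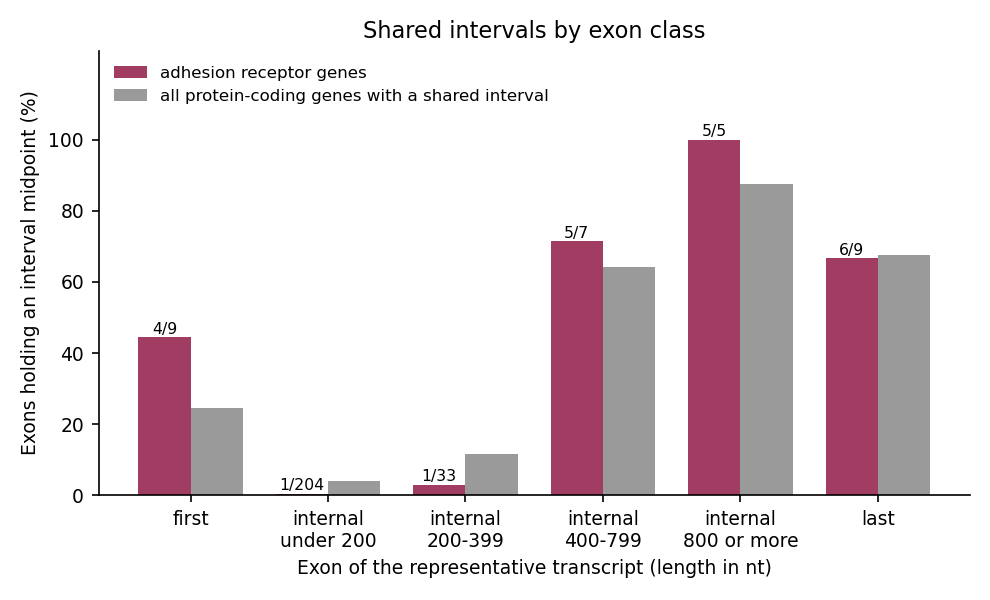
Percentage of exons of the representative transcripts that hold the midpoint of a shared interval, by exon position and length in nt, for the 9 receptor genes (Celsr1 included) and for all protein-coding genes with a shared interval, with the number of exons above the receptor bars. In the receptor genes 5 of 5 internal exons of 800 nt or more and 5 of 7 of the next class hold a midpoint, against 1 of 33 and 1 of 204 of the shorter classes.

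Within the transcripts most intervals were coding. Of the 35 midpoints 25 could be placed on the representative transcript, and 21 of these (84.0%, Wilson 65.3 to 93.6) lay in the coding sequence (CDS), 3 in the 3′ UTR and 1 in the 5′ UTR. The corresponding CDS share over all 19578 placed intervals of the series was 61.9%. That share depended on the annotation of the 3′ ends. When any coding transcript of the gene was allowed, 31 midpoints could be placed, and 21 of these (67.7%) lay in the CDS. Within the 25 placed midpoints 4 (16.0%) lay within 200 nt of the stop codon, against 22.9% of all placed intervals. A stop codon was covered by a shared interval in 7 of the 8 genes that had any, against 53.9% of all genes with a shared interval. Celsr3 was without, and its last interval ended before the stop codon. A peak of replicate 2 alone (2.47-fold) covered that stop codon, in the last exon. An interval over the start codon of the representative transcript was found in Adgrb1, Adgrb2, Celsr2 and Celsr3, where 22.3% of genes with a shared interval had that. These stop and start shares are not matched for the number or length of intervals. The 8 genes had 2 to 6 intervals each, with a median of 582 nt. All genes with a shared interval had a median of 2, and intervals over all genes a median of 337 nt. The part of number and length was not tested.

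**Figure D4:**
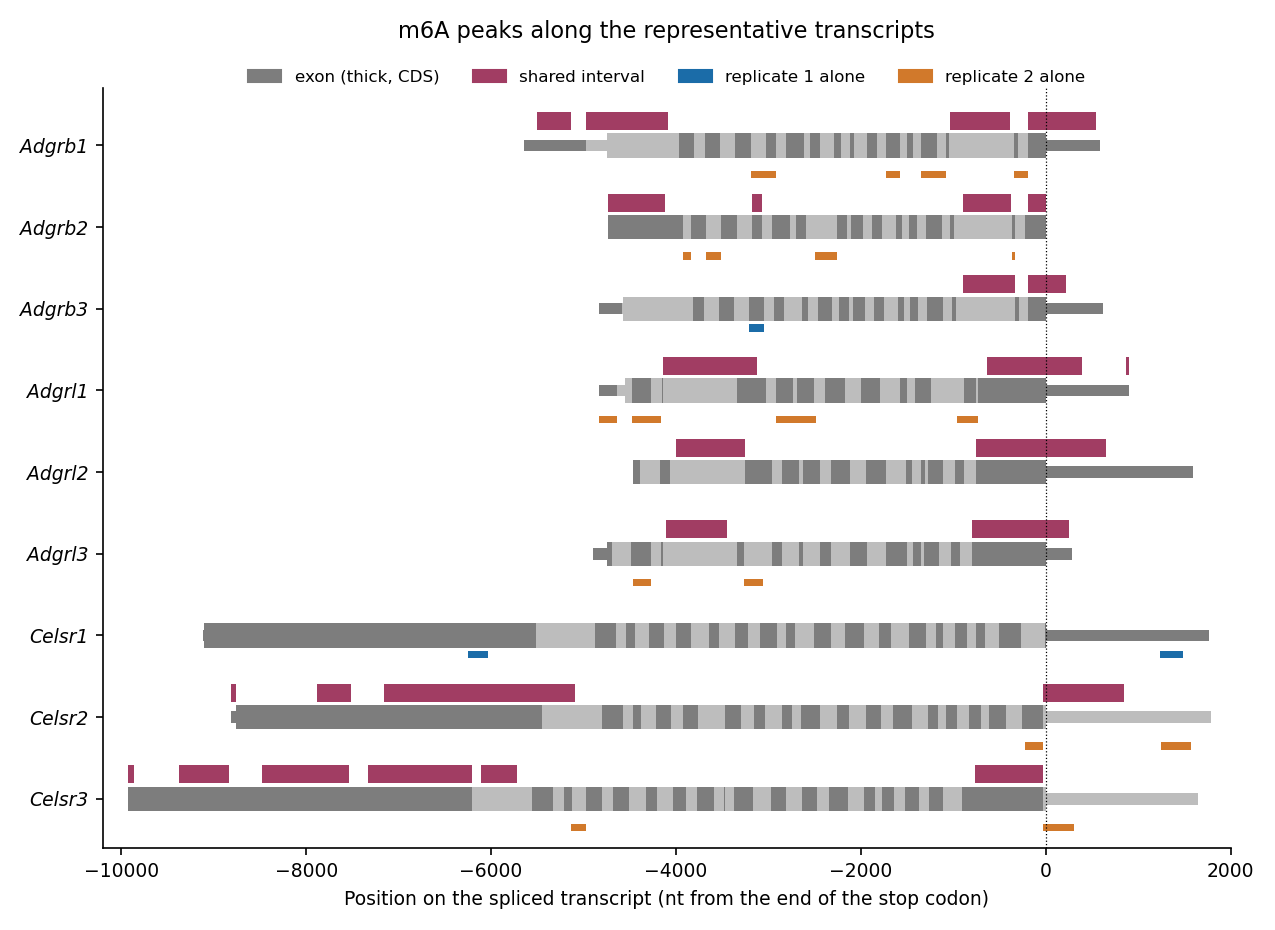
Spliced representative transcripts of the 9 genes, aligned at the end of the stop codon (nt), with exons in alternating grey (CDS thick), shared intervals in red above, and peaks of replicate 1 alone (blue) or replicate 2 alone (orange) below. Stretches outside the representative transcript are not drawn, and intervals of neighbouring exons can touch after splicing. Red intervals cover the stop codon in 7 genes but not in Celsr3, whose stop codon lies under a peak of replicate 2 alone. Celsr1 has no red interval.

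Adgrb1, a receptor that recognises phosphatidylserine on dying cells, had 4 shared intervals that marked both ends of its transcript. Enrichment was 3.54 in replicate 1 and 1.83 in replicate 2 in the 5′ UTR of exon 1, 3.01 and 2.59 at exon 2, 4.01 and 2.40 at exon 28, and 6.12 and 2.47 over the stop codon in exon 31. The interval with the highest lower value was that of exon 2 (chr15:74528871-74529821, 951 nt), which spanned the start codon and covered 88.2% of the 1011 nt of that exon. The exon 28 interval covered 646 of 701 nt, with its midpoint 709 nt before the end of the stop codon. Between exon 2 and exon 28 no shared interval was found.

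Adgrb2 repeated the ends of Adgrb1. Its first coding exon (811 nt) had values of 4.56 and 2.99 in the interval at chr4:129992054-129992683, the strongest of the gene by its lower value. Exon 26 (620 nt) had 3.57 and 2.18, and the stop codon region had 4.99 and 2.90. Weaker intervals lay in a 5′ UTR exon outside the representative transcript (2.40 and 1.69) and at exon 7, a 102-nt exon (1.44 and 1.55), which was the only internal exon under 200 nt with a shared midpoint in the 9 genes. The representative transcript of Adgrb2 ends at its stop codon in the annotation, so the stop interval was placed through another transcript.

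Adgrb3, which binds C1q-like proteins at synapses, had the fewest shared intervals of the 8 genes but high values in both. At exon 28 (chr1:25093735-25094327, 593 nt) enrichment was 5.65 and 3.80, the highest lower value of its family. Over the stop codon in exon 31 it was 4.34 and 3.04, at chr1:25067952-25068356. Exon 2, the counterpart of the covered first coding exons of Adgrb1 and Adgrb2, had no peak in either list.

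Adgrl1 had 2 shared intervals in its CDS before the last exon and 4 from the last exon onwards. At exon 6 (801 nt) the values were 3.30 and 2.45 and at exon 7 (315 nt) 2.67 and 2.01. The strongest interval, at chr8:83938454-83939478, spanned the stop codon with 4.94 and 3.27. The other 3 lay in a longer 3′ UTR than that of the representative transcript, with midpoints 1071, 2095 and 2654 nt after the stop codon and replicate 1 values of 4.11, 3.89 and 1.26. Replicate 2 had only 2 peaks over these 4 intervals (3.27 and 2.22), so its values there are not separate measurements. The exon 6 interval also touched the annotated small genes Gm44330 and Gm44450, and the lists give no strand.

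Adgrl2 had 3 intervals. Exon 4 (809 nt) held the strongest, at chr3:148858733-148859475, with 3.87 in replicate 1 and 2.96 in replicate 2. The interval over the stop codon was longer (1428 nt) and had 6.49 and 2.81, a ratio of 2.31 between the replicates. The third, over an exon of a noncoding transcript far upstream, had 2.32 and 1.86 and overlapped the antisense gene Gm43573, so the strand it belongs to cannot be told.

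Adgrl3 had a like set, with 4.78 and 2.74 at exon 6 (chr5:81512018-81512684, 667 nt), its strongest. An interval of 1055 nt over the stop codon had 4.33 and 2.30, and a neighbour in the 3′ UTR had 4.33 and 2.51. Both share 1 replicate 1 peak and overlap the antisense gene Gm16054. An upstream interval over an exon of a noncoding transcript had 2.76 and 1.91.

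Celsr2 had the highest values of the 35 exonic intervals in its last exon. The interval at chr3:108391786-108392658 (873 nt) covered the stop codon, had its midpoint 409 nt after it, and reached 7.67 in replicate 1 and 3.97 in replicate 2. It held 5 copies of GGACT. In exon 1 (3368 nt), which codes for cadherin repeats, an interval of 1761 nt had 5.94 and 2.88, the longest of the 35. Exon 2 (648 nt) had 3.07 and 2.27, and an interval mostly upstream of the annotated gene start had 3.76 and 1.88.

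Celsr3 had its 6 shared intervals over exons 1, 2 and 35 of the 36 of its transcript. Exon 1 (3721 nt) had 3 intervals with midpoints in it, with 4.69 and 2.11, 4.87 and 2.20, and 5.15 and 3.40. The last of these, at chr9:108828920-108830040 (1121 nt), was the strongest of the gene by its lower value. Another interval crossed the annotated gene start, which in Celsr3 coincides with the start codon, with 5.50 and 2.24. Exon 2 (651 nt) had 1.88 and 1.51. Exon 35 (880 nt) had 6.26 and 2.85, the highest replicate 1 value of the gene, with 4 copies of GGACT. Of its 294 aligned columns 83 fell to an exon of 262 nt in Celsr1 and 79 to an exon of 235 nt in Celsr2. Neither held a shared interval midpoint, and that of Celsr2 had a peak of replicate 2 alone (1.56-fold).

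Celsr1, the member with no shared interval, had 2 peaks in replicate 1 and 0 in replicate 2. They were short, 221 nt in exon 1 with 3.04-fold enrichment and 245 nt in the last exon with 2.36-fold. Among protein-coding genes 8.88% had a replicate 1 peak but no shared interval. The exon 1 peak covered residues 951 to 1025 of Celsr1, and of its 75 aligned codons 74 were under a shared interval in Celsr2 and 74 in Celsr3. Over the whole of exon 1, shared intervals covered 696 of 1104 codons in Celsr2 and 890 of 1241 in Celsr3. GGACT was not scarce in Celsr1, with 24 copies on the 10879 nt of its transcript, 2.21 per kb. Celsr2 had 2.67 per kb inside and 0.97 outside its shared intervals, and Celsr3 had 2.38 and 2.18.

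Shared intervals fell over many of the same aligned codons in the paralogues that had any. The proteins were aligned within each family from their translated coding sequences, and codons under a shared interval were compared at columns where both proteins have a residue. Adgrb1 and Adgrb2, with 46.1% identical residues, had 428 and 429 such codons, of which 380 were common (88.8% and 88.6%), and either set covered 29.7% to 29.8% of the aligned columns. Adgrb3 had fewer covered codons, of which 94.3% were also covered in Adgrb1 and 97.7% in Adgrb2, while only 50.7% and 50.4% of theirs were covered in Adgrb3. Among the codons covered in Adgrb1 or Adgrb2 but not in Adgrb3 were those of the first coding exon, the exon 7 codons of Adgrb2 and a stretch at the start of exon 28 of Adgrb1.

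Latrophilins had common codons at both covered blocks. Common to Adgrl1 and Adgrl2 were 452 codons (84.8% and 93.0% of each), to Adgrl1 and Adgrl3 427 (79.5% and 92.4%), and to Adgrl2 and Adgrl3 462 (93.1% and 98.3%), where 32.0% to 37.2% of the aligned columns were covered in each gene. Covered in each of them were the homologous long exon (exon 6 of Adgrl1 and Adgrl3, exon 4 of Adgrl2, 99.3%, 83.3% and 91.8% of its bases) and the coding part of the last exon, and Adgrl1 also had covered codons in exon 7. The long exon spans residues 137 to 404 of Adgrl1, in the extracellular part of the receptor. Celsr2 and Celsr3 had 657 covered codons in common, 80.2% of those of Celsr2 and 66.3% of those of Celsr3. Of their aligned columns 28.3% were covered in Celsr2 and 34.3% in Celsr3, and Celsr1 had no covered codon. These overlapping codons lie in exons that are long in each paralogue, and the part of exon length in the overlap was not tested.

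**Figure D5:**
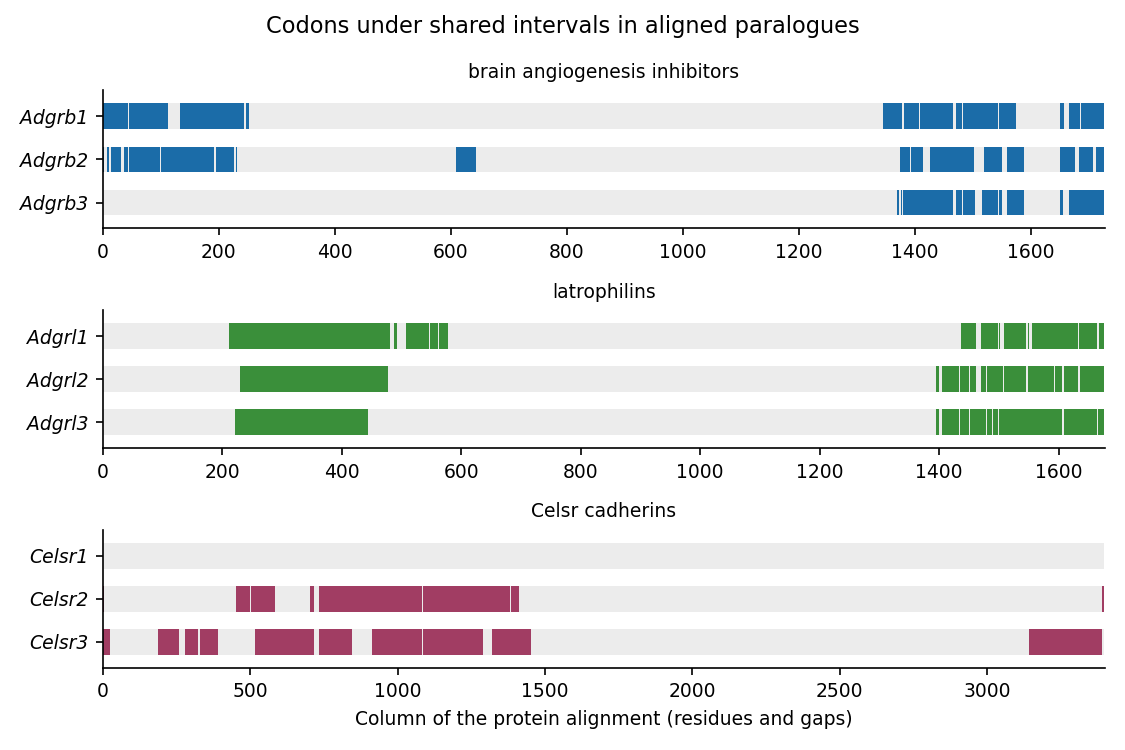
Codons under shared intervals (coloured) along the protein alignment of each family, in alignment columns counting residues and gaps. The first coding exon is covered in Adgrb1 and Adgrb2 and not in Adgrb3, the 3 latrophilins share 2 blocks, and Celsr1 has no covered codon.

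GGACT was found on the strand of the gene in 23 of the 35 intervals (65.7%), with 53 copies against 9 on the other strand. Across all shared intervals in exons of 1 protein-coding gene 43.0% held it, but these were shorter, with a median of 337 nt against 582 nt. In windows of 100 nt around the midpoint, which have 1 length, 8 of the 35 (22.9%) held GGACT on the gene's strand and 5.71% on the other, against 15.8% and 8.86% over all intervals. Windows of 100 nt tiled over the transcripts of the 9 genes held it in 14.9% of cases and over all transcripts in 9.86%. On the representative transcripts the 9 genes had 2.31 copies per kb inside shared intervals and 1.49 outside, and all genes with a shared interval 1.62 and 0.98. The sets differ, since the 9 genes include Celsr1, which has no shared interval. It holds 24 of their 72 copies outside intervals, on 10879 of 48276 nt. Adgrl1 had the widest difference among the 9 genes (2.89 and 0.55), and Adgrb2 had the reverse order (1.40 and 1.81). A match is a description of the sequence and does not mark a methylated base.

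Genes related to the receptors were counted by list, beside the 45.5% of all protein-coding genes with a shared interval, the 72.1% of those of at least 6487 nt and the pooled 0.237 per kb. Ligands and partners of latrophilins and brain angiogenesis inhibitors had a shared interval in 17 of 19 genes, with 62 intervals at 0.382 per kb and a median exon length of 7721 nt. Tenm4, a teneurin that latrophilins bind, had the most (9), and Flrt1 the highest lower value (7.15 and 3.82), while C1ql4 and Dock1 had none. Planar cell polarity partners of Celsr had a shared interval in 11 of 12 genes, with 29 intervals at 0.309 per kb. Vangl1 and Prickle2 led by number with 4 each, Dchs1 had the highest lower value (4.40 and 4.23), and Dvl2 had no peak. Of 21 other adhesion GPCRs 6 had a shared interval, 8 in all at 0.0590 per kb. Adgra1 and Adgrg1 had 2 each, and Adgrd1 had the highest lower value (3.96 and 4.38). No peak of either list was found in 14 genes, among them Adgrl4 and Adgrg6. Whether these 14 are expressed in the samples cannot be told from the lists.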

How the data were processed

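Per the labels, the authors aligned reads to mm10 with TopHat2 2.0.9 (processing notes) and called peaks with MACS2. By the study's methods, reads were trimmed, uniquely mapped reads and all duplicates were kept, and each IP replicate was called against its own input, without pooling. The deposited values are peak coordinates and a linear fold enrichment (ratio of IP over input). Duplicates can raise the ratio where few molecules were sequenced.

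Peaks were laid over GENCODE M21 exons and RefSeq GRCm38 patch 6 sequence, which has the chromosome sequences of mm10. The coding sequences of all 9 representative transcripts began with ATG. Both peak ends were counted, and replicates were shared at 1 bp or more. Overlaps were checked against bedtools 2.31.1 and tested on simulated data. Proteins were aligned with MAFFT 7.526, and intervals read with pandas 2.3.3 and pysam 0.24.0. No test was run, since there is 1 group. For each gene the interval with the highest lower value of the replicates was described in full, and list genes were named if they had no interval, the most, or the highest lower value. Members, lists and rules were chosen with earlier results of these data known. Alternatives were the overlap, fold, merging, exon, placement, window and motif rules, and leaving out a replicate.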

Additional observations from a re-analysis of the deposited data

How the results depend on the processing

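No paired analysis was possible because the samples with peak lists form 1 group and the input samples enter only through the fold enrichment. Of 63 alternative values for the 10 results, 50 stayed within the spread set for them and 13 moved. That spread was 1.5 times for counts, otherwise the SD between the replicates' own values or the Wilson interval. The tally does not measure robustness, since some values could not move. Median fold enrichments (3.88 and 2.01) use all peaks over exons. The overlap rule and leaving out the other replicate therefore leave them unchanged. The midpoint rule likewise keeps the same 25 placed intervals. The number of genes with a peak stayed at 8 under every alternative except without replicate 2, where Celsr1 made it 9. Leaving out a replicate gave 38 to 55 intervals and 0.354 to 0.512 per kb, and a share near the stop codon of 11.4% to 17.9%. With overlap of at least 50% of both peaks 73.7% of replicate 1 peaks were shared, and with at least 2-fold enrichment in both lists 86.2% of replicate 2 peaks were shared and 80.8% of intervals held GGACT. The CDS share was 93.1% when any base counted and 67.7% with placement on any coding transcript, an alternative chosen after seeing the data. The share near the stop codon was 27.6% when any base counted, 8% for a window of 100 nt and 24% for 400 nt. GGAC was found in 88.6% of intervals, and GGACT in 22.9% of 100-nt windows. The cause of these moves was not tested beyond what each rule itself changes. Depth is unknown, and 2 replicates limit the precision.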

Other observations

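Peaks were also listed inside the receptor genes but away from their annotated exons. Within the spans of the 9 genes but off their exons there were 23 peaks in replicate 1 and 4 in replicate 2, with 4 shared intervals. The same was not counted over all genes, so whether these numbers are usual cannot be told. Exons of other genes within the spans were not checked. Adgrb3, which spans 762 kb, had 13 of those peaks in replicate 1 and 3 in replicate 2. Its 3 shared intervals off exons were short but strongly enriched. They had 9.17 and 3.66 (chr1:25802969-25803177), 6.16 and 4.12 (chr1:25809118-25809215), and 4.98 and 2.96 (chr1:25706187-25706386). The fourth lay in Adgrl1, with 2.91 and 1.71. The lists carry no strand, so the transcript these came from cannot be told.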
